A study of Mus musculus with 9 samples.

Results

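The 29 genes described here encode enzymes that break down leucine, isoleucine and valine, handle the propionate that arises from them, and make or use ketone bodies. They were listed by symbol for the function of their products, with earlier results of these data known, and all 29 were found among the 54532 genes counted in mouse 3T3-L1 cells. Breakdown of the branched-chain amino acids starts with a reversible transamination to branched-chain ketoacids, which a mitochondrial dehydrogenase complex then commits to oxidation under the control of a kinase and a phosphatase. Separate leucine, isoleucine and valine branches carry the products on to acetyl-CoA, acetoacetate and propionyl-CoA. In fat cells this pathway is known as a source of carbon for lipid synthesis, and its enzymes are known to rise as preadipocytes become adipocytes.

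3T3-L1 is a clonal mouse preadipocyte line from ATCC, and its cells were kept at confluence for 3 days in DMEM with bovine calf serum. Undifferentiated cells were the control without induction. Differentiated cells received differentiation medium, in which fetal bovine serum and added lysine were present together with insulin at 10 μg/mL, rosiglitazone at 1 μM, dexamethasone at 1 μM and 3-isobutyl-1-methylxanthine at 0.5 mM, and Lysfree cells received that medium with the same 4 agents and no added lysine. Arginine was added back in both media, so serum and base medium as well as the 4 agents separated Undifferentiated cells from the other groups. Each group had 3 libraries of poly A enriched RNA, 9 in all. The labels do not say whether the libraries of a group came from separate cultures, so the p-values measure the spread between these libraries, which may be technical.

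Library totals were 15880144 to 21806693 counts on genes. Lysfree 1 stood apart from Lysfree 2 and 3, with a chi-square per degree of freedom of 43.3 and 44.4 against them and of 2.76 between them. Of 27 pathway genes with enough counts to compare, 8 were over 1.2 times and 4 under 1/1.2 of the mean of Lysfree 2 and 3 in Lysfree 1, with ratios from 0.698 to 1.45. Results that rest on Lysfree 1 are therefore also given without it where it moves them. All 10 adipocyte markers examined, among them Adipoq, Fabp4 and Plin1, were higher in Differentiated than in Undifferentiated cells and lower in Lysfree than in Differentiated cells, and their summed level was 322 to 405 FPKM in Undifferentiated, 7051 to 7405 FPKM in Differentiated and 296 to 412 FPKM in Lysfree libraries. FPKM is the deposited level in fragments per kilobase of gene, as scaled by the submitters. It does not equal the counts per kilobase scaled to the library totals given above. In Lysfree vs Undifferentiated the 10 markers divided, with 1 higher and 4 lower by the 2-fold rule given below. From Undifferentiated to Lysfree cells, mean Adipoq went from 57.8 to 4.18 FPKM and mean Cd36 from 16.6 to 72.7 FPKM. Lpl had the largest Lysfree mean of the 10, 188 FPKM. The 8 preadipocyte and fibroblast markers summed to 4513 to 4885, 1225 to 1230 and 2342 to 2381 FPKM in Undifferentiated, Differentiated and Lysfree libraries. Single markers did not all follow that order. Fn1 had means of 380, 58.6 and 719 FPKM in these groups, and Col1a1 of 1887, 362 and 327 FPKM. In Lysfree vs Undifferentiated, 0 of the 8 were higher and 4 lower by the 2-fold rule, and 2 higher and 5 lower by its p threshold alone. The share that this change of cell state had in the pathway genes was not tested, and in RNA from whole cultures fewer cells of a type and less RNA per cell cannot be told apart. Several defining markers of other cells were at 0. The macrophage genes Adgre1 and Itgam, the epithelial gene Epcam and the muscle gene Myod1 had no count in any library. The 5 macrophage markers summed to 4.79 to 6.47, 4.66 to 5.20 and 4.67 to 5.88 FPKM in Undifferentiated, Differentiated and Lysfree libraries, nearly all of it Cd14. In the same order the 4 muscle markers summed to 2.34 to 3.20, 3.21 to 4.27 and 0.871 to 1.29 FPKM, mostly Des. Sums of the 3 epithelial markers were 0 to 0.345, 0.789 to 1.12 and 0 to 0.0115 FPKM, mostly Krt18, and those of the 4 endothelial markers 0.0646 to 0.126, 0.0810 to 0.201 and 0.248 to 0.272 FPKM. Muscle and epithelial sums were thus highest in Differentiated cells, as most pathway genes were, and their part in the results was not tested.

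Most pathway genes stood higher in Differentiated than in Undifferentiated cells and lower again in Lysfree cells, where the summed level was close to that of Undifferentiated cells. The sum of all 29 was 352 to 384 FPKM in Undifferentiated, 955 to 968 FPKM in Differentiated and 362 to 400 FPKM in Lysfree libraries. As a share of all counts they took 0.134% to 0.142%, 0.339% to 0.343% and 0.149% to 0.165%. Differentially expressed genes (DEGs) had a Benjamini-Hochberg adjusted p under 0.05 in edgeR's quasi-likelihood test over all genes and at least a 2-fold change. By this rule 13 of the 29 genes rose and 0 fell in Differentiated vs Undifferentiated, where 10.4% of all 24402 genes tested were higher and 11.4% lower. In Lysfree vs Differentiated, 18 fell and 1 rose, against 10.5% of all genes lower and 8.14% higher. The median log2 fold change of the 29 genes was 0.98 in Differentiated vs Undifferentiated and -1.43 in Lysfree vs Differentiated, beside 0.02 and -0.06 over all genes tested. The last contrast, Lysfree vs Undifferentiated, gave 2 genes higher and 5 lower with a median of -0.29, where 5.52% of all genes were higher and 8.76% lower and the median was -0.02. Without Lysfree 1 the counts were 19 lower and 1 higher in Lysfree vs Differentiated, and 5 lower and 2 higher in Lysfree vs Undifferentiated. These 3 comparisons share libraries, so that a single high Differentiated group enters the first and the second.

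**Figure D1:**
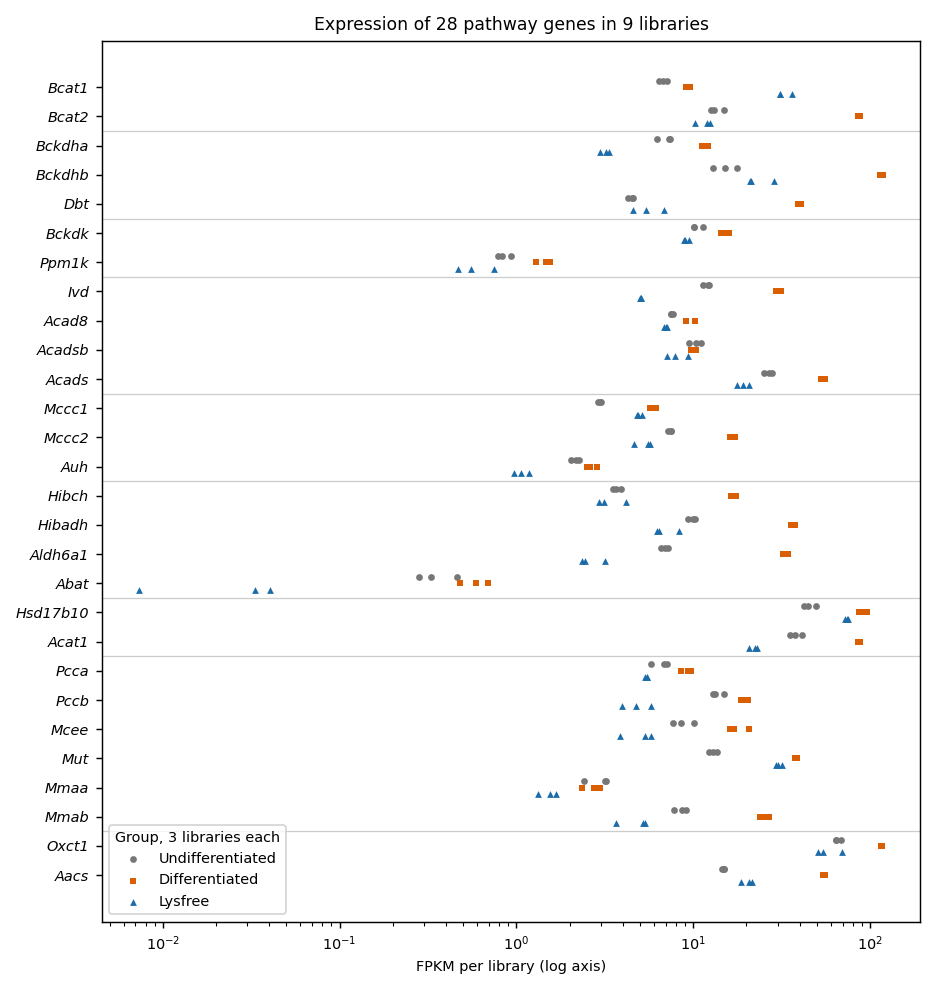
Level of each pathway gene in each library, in FPKM on a log axis, with grey circles for Undifferentiated, orange squares for Differentiated and blue triangles for Lysfree libraries and grey lines between steps of the pathway. Bcat1 is the gene whose 3 Lysfree libraries all lie above the other 6 libraries, while Bcat2, Bckdhb and Dbt have their Differentiated libraries far to the right of both other groups. Bdh1, with at most 2 counts in a library, is left out.

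With the p threshold alone, 26 genes were higher and 0 lower in Differentiated vs Undifferentiated, where 23% of all genes were higher by that rule, and the remaining 3 were Acadsb, Mmaa and Bdh1. Lysfree vs Differentiated then had 25 lower and 1 higher, where 18.8% of all genes were lower and 19.7% higher, and Acadsb, Mccc1 and Bdh1 did not pass. For 27 of the 29 genes the FPKM ranges of these groups did not overlap with Lysfree lower, against 25.3% of all genes, and for Bcat1 with Lysfree higher, against 21.3%. In Differentiated vs Undifferentiated, 26 genes had ranges that did not overlap with Differentiated higher, against 26.2% of all genes. Between Lysfree and Undifferentiated cells, 7 genes were higher and 14 lower by the p threshold, where 18% of all genes were higher and 17.1% lower, and the ranges did not overlap for 7 with Lysfree higher (20.2% of all genes) and 19 with Lysfree lower (23.2%). A filter on low counts (filterByExpr) kept 28 genes. It removed Bdh1, which had 2 counts in Undifferentiated 1, 2 in Lysfree 2 and 0 in the other 7 libraries. This gene for the dehydrogenase that interconverts acetoacetate and 3-hydroxybutyrate was thus under the floor of 3 counts everywhere, and no fold is given for it. Without Bdh1 the medians were 0.99, -1.52 and -0.36. The shares over all genes tested include many with few counts, which were called less often. Among genes past the filter, 2114 of 13869 were DEGs higher in Differentiated vs Undifferentiated and 2101 of 13617 lower in Lysfree vs Differentiated. Ranges did not overlap with Lysfree lower than Differentiated for 5022 of the 13617. By the p threshold, 4158 of 13648 were higher and 3794 lower in Lysfree vs Undifferentiated, beside 7 and 14 of the 29.

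The clearest exchange was at the first step, between the paired transaminases. Bcat1, the cytosolic branched-chain aminotransferase (ENSMUSG00000030268, GRCm38 chromosome 6, 144993835 to 145076184, minus strand), was at 7.07, 6.36 and 6.78 FPKM in Undifferentiated, 9.08, 9.53 and 9.56 FPKM in Differentiated and 36.0, 31.0 and 31.2 FPKM in Lysfree libraries. The groups did not overlap, and the Lysfree libraries lay more than 3 times above the highest Differentiated library. Bcat1 rose 3.64-fold in Lysfree vs Differentiated (log2 fold change 1.86 ± 0.09, SE, adjusted p = 5.8e-13) and 5.02-fold in Lysfree vs Undifferentiated (2.33 ± 0.10, adjusted p = 1.5e-18), and was the only pathway gene that rose in the former. Differentiated exceeded Undifferentiated cells by 1.37-fold (0.45 ± 0.06, adjusted p = 1e-11), under the 2-fold threshold. Without Lysfree 1 the change against Differentiated cells was 1.77.

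Bcat2, the mitochondrial aminotransferase (ENSMUSG00000030826, chromosome 7, 45570153 to 45589711, plus strand), had its highest level in Differentiated cells. It was at 12.6, 15.0 and 13.2 FPKM in Undifferentiated, 86.1, 85.2 and 87.3 FPKM in Differentiated and 10.2, 12.5 and 12.01 FPKM in Lysfree libraries. Differentiated libraries stood far above both other groups, and the highest Lysfree library was just below the lowest Undifferentiated one. Bcat2 rose 6.22-fold with differentiation (2.64 ± 0.06, edgeR's adjusted p below the smallest value that R stores) and was 7.11-fold lower in Lysfree than in Differentiated cells (-2.83 ± 0.10, adjusted p = 2.7e-15). Lysfree and Undifferentiated cells were not told apart (-0.18 ± 0.12, adjusted p = 0.26).

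Summed per length, both transaminase transcripts came to 20.3 ± 0.901 FPKM (SD, n = 3) in Undifferentiated, 95.6 ± 1.14 FPKM in Differentiated and 44.3 ± 1.72 FPKM in Lysfree cells. Bcat1 made up 33.2% ± 3.15 of that sum in Undifferentiated cells, 9.82% ± 0.271 in Differentiated cells and 73.8% ± 3.57 in Lysfree cells. The cytosolic form was thus the minor transcript in 6 libraries and the major one in the 3 Lysfree libraries.

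Since these 2 genes moved in opposite directions in Lysfree vs Differentiated, the sequence upstream of their starts is shown, from 250 to 31 bases before the RefSeq start on GRCm38.p6, read 5′ to 3′ on the strand of the gene. The Bcat1 stretch is chr6:145076188-145076407 on the minus strand and the Bcat2 stretch is chr7:45569903-45570122 on the plus strand. Capitals mark a CCAAT box, which here lies on the other strand and so reads ATTGG. The Bcat2 stretch overlaps an exon of the antisense gene 0610005C13Rik.
Bcat1: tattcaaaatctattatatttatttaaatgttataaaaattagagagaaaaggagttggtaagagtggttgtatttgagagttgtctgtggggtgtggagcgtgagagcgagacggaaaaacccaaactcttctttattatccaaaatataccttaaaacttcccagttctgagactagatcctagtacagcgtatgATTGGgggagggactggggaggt
Bcat2: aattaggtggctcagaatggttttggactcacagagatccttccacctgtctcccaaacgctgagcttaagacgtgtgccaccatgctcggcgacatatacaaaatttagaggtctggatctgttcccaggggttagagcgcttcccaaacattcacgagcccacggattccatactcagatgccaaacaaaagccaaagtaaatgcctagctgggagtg

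Of the 29 genes, 25 had an upstream window in the RefSeq table, and Dbt, Mut, Abat and Acat1 did not. Over the 250 bases before the start and on both strands, the letters CCAAT occurred in 14 of the 25 (56%), against 34.5% of the windows of 27025 genes. The single copy AGGTCA bound by nuclear receptors occurred in Bckdhb, Ppm1k and Pcca (12%, against 13.8%), and the E-box CACGTG in Mccc2 alone (4%, against 6.04%). TGATGNAA, the composite letters bound by ATF4 with CHOP or another C/EBP protein, the cAMP response element TGACGTCA, the ERR element TCAAGGTCA, the direct repeat of nuclear receptors with 1 base between its copies and the NRF1 palindrome were found in none of the 25, and in 3.53%, 1.6%, 0.366%, 0.037% and 0.777% of all windows. AGGTCA is contained in TCAAGGTCA and in the direct repeat. In a search added after the values were seen, TGATGNAA or its reverse complement lay within the first 200 transcribed bases of a protein-coding GENCODE vM21 transcript in 2 of the 29 genes, against 4.21% of 21801 genes. These were Bcat1 (transcript Bcat1-203, bases 141 to 148) and Abat (Abat-207, bases 85 to 92, on the other strand), each printed with the match in capitals. A match of letters is a description and not evidence of binding.
Bcat1: agtcgctgcTGATGCAAtccgcagcg
Abat: cgcgagcacTTTCATCAacagacctg

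Of the 3 subunits particular to the branched-chain ketoacid dehydrogenase complex, which commits the ketoacids to oxidation, all fell in Lysfree vs Differentiated and 2 rose with differentiation. Its subunit Dld, shared with other complexes and described with the neighbouring steps, rose and fell as well. Bckdhb, the beta subunit of its decarboxylase (ENSMUSG00000032263, chromosome 9, 83925145 to 84124240), was at 12.9, 17.6 and 15.1 FPKM in Undifferentiated, 119, 115 and 118 FPKM in Differentiated and 28.8, 21.2 and 20.9 FPKM in Lysfree libraries. Its groups did not overlap, with Lysfree between the others. Bckdhb rose 7.54-fold with differentiation (2.91 ± 0.07) and was 4.75-fold lower in Lysfree than in Differentiated cells (-2.25 ± 0.11, edgeR's adjusted p = 7.5e-13). It stayed 1.60-fold above Undifferentiated cells (0.68 ± 0.14, adjusted p = 0.00011), short of the 2-fold threshold. When a library was left out, that change ranged from 0.49 to 0.80, and Lysfree 1 was the highest Lysfree library.

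Dbt, the acyltransferase core of the complex (ENSMUSG00000000340, chromosome 3, 116513070 to 116549981), was at 4.28, 4.56 and 4.50 FPKM in Undifferentiated, 40.3, 40.6 and 39.2 FPKM in Differentiated and 6.85, 4.57 and 5.42 FPKM in Lysfree libraries. Again the Differentiated libraries stood alone at the top. Dbt had the largest fold of the 29 genes with differentiation, 8.84-fold (3.14 ± 0.07), and was 6.83-fold lower in Lysfree cells (-2.77 ± 0.12, adjusted p = 1.2e-13). The difference between Lysfree and Undifferentiated cells was 0.38 ± 0.15 (adjusted p = 0.046), and with Lysfree 1 left out it was 0.19 (adjusted p = 0.22).

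Bckdha, the alpha subunit of the decarboxylase and the target of its kinase (ENSMUSG00000060376, chromosome 7, 25629946 to 25658981), moved less with differentiation. Its levels were 6.28, 7.25 and 7.37 FPKM in Undifferentiated, 11.6, 11.2 and 12.1 FPKM in Differentiated and 3.36, 2.98 and 3.23 FPKM in Lysfree libraries. Lysfree libraries were below both other groups. Bckdha was 1.64-fold higher in Differentiated than in Undifferentiated cells (0.72 ± 0.10, adjusted p = 2.1e-11), fell 3.49-fold in Lysfree vs Differentiated (-1.80 ± 0.14, adjusted p = 8.6e-10) and was 2.11-fold lower in Lysfree than in Undifferentiated cells (-1.08 ± 0.17, adjusted p = 2.7e-06).

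Of the regulators of the complex, 1 of 2 fell in Lysfree vs Differentiated and neither reached 2-fold with differentiation. Bckdk, the kinase that switches the complex off, was at 10.1, 11.3 and 10.1 FPKM in Undifferentiated, 15.9, 14.3 and 15.3 FPKM in Differentiated and 9.49, 8.87 and 8.98 FPKM in Lysfree libraries. Differentiated libraries were highest and Lysfree libraries lowest without overlap, but no change reached 2-fold (0.50 ± 0.07 with differentiation, and -0.67 ± 0.10 in Lysfree vs Differentiated, adjusted p = 1.6e-05). In Lysfree vs Undifferentiated Bckdk did not pass the p threshold, and without Lysfree 1 its change was -0.22 (edgeR's adjusted p = 0.041). Ppm1k, the phosphatase that switches the complex on again, was at 0.834, 0.787 and 0.933 FPKM, 1.29, 1.46 and 1.54 FPKM, and 0.746, 0.470 and 0.556 FPKM in the same order of groups. The 3 groups were ordered as for Bckdk. Ppm1k fell 2.32-fold in Lysfree vs Differentiated (-1.22 ± 0.20, adjusted p = 2.8e-05), with 54 to 79 counts in a Lysfree library. Against Undifferentiated cells it was -0.48 ± 0.22 (adjusted p = 0.096), and -0.70 (adjusted p = 0.0034) without Lysfree 1. On the log2(FPKM + 1) scale the change of Ppm1k against Differentiated cells was -0.61.

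The ratio of kinase to phosphatase transcript was 12.5 ± 1.79 in Undifferentiated, 10.7 ± 1.44 in Differentiated and 15.9 ± 3.08 in Lysfree cells (SD, n = 3), with every Lysfree library above every Differentiated one and the Undifferentiated range overlapping both.

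**Figure D2:**
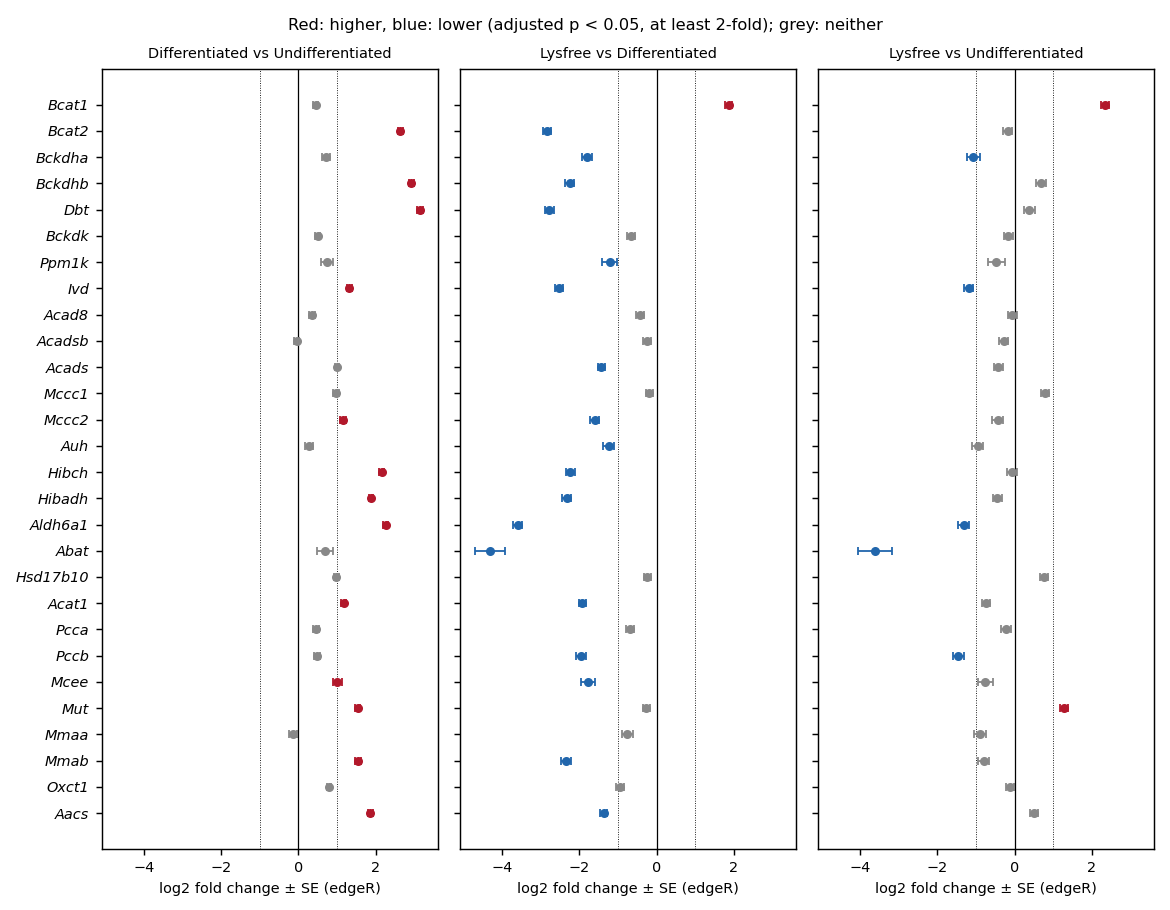
log2 fold change of each pathway gene, with its SE, in the 3 comparisons, where red marks genes called higher, blue genes called lower and grey genes called neither, and dotted lines mark a 2-fold change. The middle panel has 18 blue points and 1 red point, Bcat1, while in the right panel 22 genes including Bdh1, which is not drawn, are neither higher nor lower.

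Acyl-CoA dehydrogenases take over after the complex. Ivd, the isovaleryl-CoA dehydrogenase of the leucine branch, was at 11.4, 12.3 and 12.1 FPKM in Undifferentiated, 29.3, 31.6 and 30.3 FPKM in Differentiated and 5.10, 5.08 and 4.98 FPKM in Lysfree libraries. The Lysfree libraries were the lowest and differed by little among themselves. Ivd rose 2.50-fold with differentiation (1.32 ± 0.06, edgeR's adjusted p = 2.1e-105), fell 5.75-fold in Lysfree vs Differentiated (-2.52 ± 0.10, adjusted p = 9.3e-15) and was 2.29-fold lower in Lysfree than in Undifferentiated cells (-1.19 ± 0.11, adjusted p = 1.1e-10).

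The dehydrogenases of the valine and isoleucine branches hardly moved. Acad8, which acts on isobutyryl-CoA from valine, differed by 0.36 ± 0.08 with differentiation and by -0.43 ± 0.11 in Lysfree vs Differentiated, both under 2-fold. Acadsb, which acts on 2-methylbutyryl-CoA from isoleucine, was at 11.0, 9.42 and 10.3 FPKM in Undifferentiated, 10.2, 9.66 and 10.4 FPKM in Differentiated and 9.37, 7.88 and 7.13 FPKM in Lysfree libraries. Undifferentiated and Differentiated libraries overlapped, and the Lysfree libraries lay just under both. The change of Acadsb in Lysfree vs Differentiated was -0.25 ± 0.11 (adjusted p = 0.073) and with Lysfree 1 left out -0.38 (adjusted p = 7.5e-09). Acadsb overlaps Fgfr2 on the opposite strand, which had 2396 to 4784 counts in the group means against 1085 to 1451 for Acadsb, and the strand setting of the counting is not given in the sources used here. Acads, the short-chain acyl-CoA dehydrogenase of fatty acid oxidation, had a change of 0.998 ± 0.06 on the log2 scale with differentiation, just under the threshold, and fell 2.70-fold in Lysfree vs Differentiated (-1.43 ± 0.10, adjusted p = 8.9e-11).

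In the leucine branch, the carboxylase subunits came apart in Lysfree cells. Mccc1, the biotin-carrying subunit of 3-methylcrotonyl-CoA carboxylase, was at 2.88, 2.99 and 2.99 FPKM in Undifferentiated, 5.77, 6.14 and 5.68 FPKM in Differentiated and 4.82, 5.12 and 4.85 FPKM in Lysfree libraries. Its Lysfree libraries were close below the Differentiated ones. The change in Lysfree vs Differentiated was -0.19 ± 0.10 (adjusted p = 0.15), and -0.19 with an adjusted p of 0.0082 without Lysfree 1. Mccc2, its partner subunit, rose 2.22-fold with differentiation (1.15 ± 0.08) and fell 3.03-fold in Lysfree vs Differentiated (-1.60 ± 0.12, adjusted p = 5.1e-10). Auh, the hydratase of the next step, was 1.21-fold higher in Differentiated than in Undifferentiated cells (0.27 ± 0.09, adjusted p = 0.0079, and 0.094 without Differentiated 1) and fell 2.37-fold in Lysfree vs Differentiated (-1.24 ± 0.13, adjusted p = 1.3e-07).

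In the valine branch, Hibch, Hibadh, Aldh6a1 and Abat fell in Lysfree vs Differentiated, while Acad8 stayed under 2-fold. Aldh6a1, the methylmalonate semialdehyde dehydrogenase (ENSMUSG00000021238, chromosome 12, 84430717 to 84451004), was at 6.54, 7.16 and 6.96 FPKM in Undifferentiated, 34.0, 34.5 and 32.1 FPKM in Differentiated and 3.19, 2.45 and 2.36 FPKM in Lysfree libraries. No libraries overlapped between groups, and Lysfree was lowest. Aldh6a1 rose 4.77-fold with differentiation (2.26 ± 0.06), fell 12.04-fold in Lysfree vs Differentiated (-3.59 ± 0.12, edgeR's adjusted p = 9.6e-16) and was 2.51-fold lower in Lysfree than in Undifferentiated cells (-1.33 ± 0.13, adjusted p = 6.6e-10). Hibch, the hydrolase that frees 3-hydroxyisobutyrate, rose 4.44-fold and fell 4.70-fold in these 2 comparisons, and Hibadh, which oxidises that acid, rose 3.65-fold and fell 5.03-fold. Hibch ended near the Undifferentiated level, with a change of -0.07 ± 0.14 (adjusted p = 0.72). Hibadh ended below it by less than 2-fold (-0.45 ± 0.11, adjusted p = 0.0012), and its Lysfree and Undifferentiated libraries did not overlap. When a library was left out, that change of Hibadh ranged from -0.62 to -0.38. For Hibch, leaving out Lysfree 1 gave -0.26 (adjusted p = 0.04).

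Abat, the GABA transaminase, which also acts on the aminated valine product 3-aminoisobutyrate, was a weakly expressed gene. It was at 0.460, 0.330 and 0.282 FPKM in Undifferentiated, 0.592, 0.693 and 0.479 FPKM in Differentiated and 0.00734, 0.0406 and 0.0333 FPKM in Lysfree libraries. These values rest on 35 to 76, 60 to 100 and 1 to 6 counts per library, and the Lysfree libraries were below all others. The fitted change of Abat in Lysfree vs Differentiated was -4.31 ± 0.38 (adjusted p = 6.7e-09) and in Lysfree vs Undifferentiated -3.62 ± 0.43 (adjusted p = 1.7e-08), both imprecise because so few Lysfree counts enter them. On the log2(FPKM + 1) scale the changes were -0.63 and -0.40. Against Undifferentiated cells, Differentiated cells were at 0.68 ± 0.21 (adjusted p = 0.0026).

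Among the enzymes that finish isoleucine breakdown, Hsd17b10 and Acat1 differed in Lysfree cells. Hsd17b10, the 2-methyl-3-hydroxybutyryl-CoA dehydrogenase and also a part of mitochondrial RNase P, was at 42.4, 49.3 and 44.3 FPKM in Undifferentiated, 92.5, 86.4 and 95.7 FPKM in Differentiated and 74.9, 72.3 and 74.4 FPKM in Lysfree libraries. Lysfree libraries kept most of the Differentiated level, with a change of -0.24 ± 0.09 (adjusted p = 0.034, and 0.15 with library totals in place of TMM). The Lysfree level of Hsd17b10 was 1.68-fold above that of Undifferentiated cells (0.75 ± 0.10, adjusted p = 3.4e-07), under the 2-fold threshold.

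Acat1, the mitochondrial thiolase that splits 2-methylacetoacetyl-CoA and acetoacetyl-CoA, was at 35.3, 41.0 and 37.8 FPKM in Undifferentiated, 87.6, 85.6 and 88.0 FPKM in Differentiated and 23.0, 22.4 and 20.6 FPKM in Lysfree libraries. In contrast to Hsd17b10, its Lysfree libraries lay below all Undifferentiated libraries. Acat1 rose 2.25-fold with differentiation (1.17 ± 0.05) and fell 3.78-fold in Lysfree vs Differentiated (-1.92 ± 0.09, adjusted p = 2e-13).

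Propionyl-CoA from valine and isoleucine is carboxylated, epimerised and rearranged to succinyl-CoA, and 3 of the 6 genes of this route fell in Lysfree vs Differentiated. Mut, the cobalamin-dependent mutase of the last step, was at 13.6, 12.9 and 12.2 FPKM in Undifferentiated, 38.7, 38.0 and 37.8 FPKM in Differentiated and 31.9, 30.1 and 29.3 FPKM in Lysfree libraries. Its Lysfree libraries lay near the Differentiated ones and far above the Undifferentiated ones. Mut rose 2.90-fold with differentiation (1.54 ± 0.06, adjusted p = 1.8e-129) and was 2.43-fold higher in Lysfree than in Undifferentiated cells (1.28 ± 0.10, adjusted p = 3.6e-12). It was, with Bcat1, one of the 2 pathway genes higher in that comparison. In Lysfree vs Differentiated it differed by -0.26 ± 0.09 (adjusted p = 0.019, and 0.092 with library totals). Mut overlaps Cenpq on the opposite strand, which had 89.3 to 225 counts against 969 to 2419 for Mut in the group means.

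Mmab, which makes the adenosylcobalamin that the mutase uses, rose 2.90-fold with differentiation (1.54 ± 0.07), the same fold as Mut, and fell 5.07-fold in Lysfree vs Differentiated (-2.34 ± 0.13, adjusted p = 4.5e-12). Mmaa, the GTPase that loads and protects the mutase, did not pass the p threshold with differentiation (-0.15 ± 0.10, adjusted p = 0.27) and differed by -0.76 ± 0.15 in Lysfree vs Differentiated (adjusted p = 0.00031). Mcee, the methylmalonyl-CoA epimerase, was 2.00-fold higher in Differentiated than in Undifferentiated cells, at the threshold itself, and fell 3.43-fold in Lysfree vs Differentiated (-1.78 ± 0.17, adjusted p = 2.8e-08). The call of Mcee with differentiation was lost without Undifferentiated 1, Undifferentiated 3 or Differentiated 3, where its change was 0.97, 0.93 and 0.89.

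The carboxylase subunits of this route came apart as those of the leucine branch did. Pccb, the beta subunit of propionyl-CoA carboxylase, fell 3.87-fold in Lysfree vs Differentiated (-1.95 ± 0.13, adjusted p = 1.3e-10) and was 2.75-fold lower in Lysfree than in Undifferentiated cells (-1.46 ± 0.14, adjusted p = 2.5e-10). Pcca, the biotin-carrying subunit, differed by -0.69 ± 0.11 and -0.22 ± 0.12 in these comparisons, under 2-fold in both. Without Lysfree 1 the latter was -0.25 (edgeR's adjusted p = 0.023). Pcca overlaps Ggact on the opposite strand, which had 175 to 253 counts against 530 to 802 for Pcca in the group means.

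Ratios within a library set such partners side by side, for pairs picked after their values had been seen and so without a test. The Mccc1 to Mccc2 ratio of FPKM was 0.399 ± 0.0174 in Undifferentiated, 0.350 ± 0.00587 in Differentiated and 0.940 ± 0.0913 in Lysfree cells (SD, n = 3). For Pcca to Pccb the ratio was 0.478 ± 0.0494, 0.470 ± 0.0129 and 1.16 ± 0.232. In both carboxylases the biotin-carrying subunit gained on its partner in all 3 Lysfree libraries. Mut to Mmab went from 1.52 ± 0.200 and 1.52 ± 0.104 to 6.66 ± 1.74, with Lysfree 1 the highest at 8.67. Bckdha to Bckdhb moved with differentiation instead, from 0.461 ± 0.0428 to 0.0993 ± 0.00266, and was 0.137 ± 0.0191 in Lysfree cells. Bcat1 to Bcat2 was 0.500 ± 0.0698, 0.109 ± 0.00333 and 2.87 ± 0.569 in the same order.

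**Figure D3:**
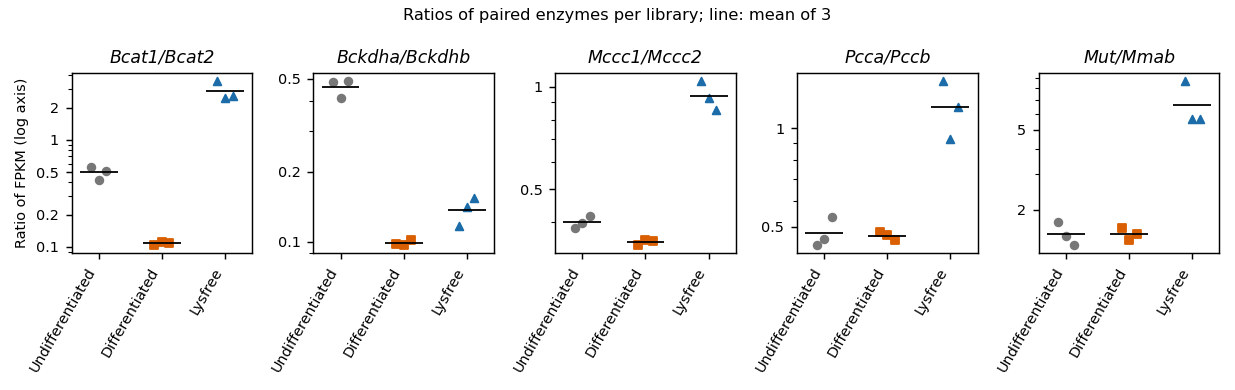
Ratio of FPKM between paired genes in each library on log axes that differ between panels, with a bar at the mean of 3 libraries. Bcat1 to Bcat2, Mccc1 to Mccc2, Pcca to Pccb and Mut to Mmab are highest in all 3 Lysfree libraries, whereas Bckdha to Bckdhb is highest in the Undifferentiated libraries.

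Of the ketone body genes with enough counts, Aacs fell in Lysfree vs Differentiated and Oxct1 stayed just under 2-fold. Oxct1, which activates acetoacetate with CoA from succinyl-CoA so that it can be oxidised (ENSMUSG00000022186, chromosome 15, 4026383 to 4155344), was at 64.3, 68.4 and 64.1 FPKM in Undifferentiated, 117, 117 and 115 FPKM in Differentiated and 69.4, 54.5 and 50.8 FPKM in Lysfree libraries. Lysfree 1 lay above the Undifferentiated libraries and Lysfree 2 and 3 below them. Oxct1 was 1.74-fold higher with differentiation (0.80 ± 0.05) and 1.92-fold lower in Lysfree than in Differentiated cells (-0.94 ± 0.10, edgeR's adjusted p = 1.1e-07), both under 2-fold. Without Lysfree 1 the latter was -1.10, past the threshold. Against Undifferentiated cells the change was -0.13 ± 0.11 (adjusted p = 0.41), and -0.30 (adjusted p = 3.1e-06) without Lysfree 1.

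Aacs, the cytosolic acetoacetyl-CoA synthetase that sends acetoacetate to lipid and sterol synthesis (ENSMUSG00000029482, chromosome 5, 125475814 to 125517410), was at 15.0, 15.0 and 14.5 FPKM in Undifferentiated, 55.3, 54.9 and 54.5 FPKM in Differentiated and 18.6, 21.5 and 20.8 FPKM in Lysfree libraries. The groups did not overlap, with Lysfree just above Undifferentiated. Aacs rose 3.63-fold with differentiation (1.86 ± 0.06) and fell 2.58-fold in Lysfree vs Differentiated (-1.37 ± 0.09, adjusted p = 8.8e-11).

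Sorted by their calls in the 3 comparisons, 10 genes rose with differentiation, fell in Lysfree vs Differentiated and were called neither higher nor lower against Undifferentiated cells, or 34.5% of the 29 against 5.67% of the 21468 genes tested in all comparisons. They were Bcat2, Bckdhb, Dbt, Mccc2, Hibch, Hibadh, Acat1, Mcee, Mmab and Aacs. Not all of them were back at the Undifferentiated level. By the p threshold alone, Bckdhb, Dbt and Aacs were higher in Lysfree than in Undifferentiated cells. Mccc2, Hibadh, Acat1, Mcee and Mmab were lower by that threshold, and Bcat2 and Hibch were neither. Ivd and Aldh6a1 rose, fell and ended below Undifferentiated cells, as 0.764% of all genes did. Bckdha, Abat and Pccb fell in Lysfree cells against both other groups, and their rise with differentiation stayed under 2-fold and so was not called (2.04% of all genes). Ppm1k, Acads and Auh were called in Lysfree vs Differentiated alone (2.23%). Mut rose with differentiation and was also higher in Lysfree than in Undifferentiated cells (1.79%), and Bcat1 rose in Lysfree cells against both groups (1.66%). The other 9 genes, 31% of the 29, were called in no comparison, against 64.4% of all genes. A gene called in one comparison and not in another is not thereby shown to differ between them.

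Genes of neighbouring steps were counted on lists chosen by function. Of 20 tested genes of downstream and shared steps, 11 rose and 1 fell with differentiation, 0 rose and 13 fell in Lysfree vs Differentiated, and 1 rose and 1 fell in Lysfree vs Undifferentiated, with medians of 1.44, -1.42 and -0.17. Dld, the dihydrolipoamide dehydrogenase that completes the ketoacid dehydrogenase complex, rose 2.23 ± 0.05 with differentiation and fell by 1.12 ± 0.10 in Lysfree vs Differentiated on the log2 scale (adjusted p = 4.2e-09), and unlike Dbt and Bckdhb it stayed past 2-fold above Undifferentiated cells (1.12 ± 0.11, adjusted p = 1.3e-10). Echs1, the crotonase of the valine and isoleucine branches, fell by 2.15 ± 0.09 and Acat2, the cytosolic thiolase, by 3.08 ± 0.10 in Lysfree vs Differentiated.

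Hmgcs1, the cytosolic HMG-CoA synthase of sterol synthesis, was at 22.1 ± 0.691, 164 ± 3.28 and 22.6 ± 2.59 FPKM (SD, n = 3) in Undifferentiated, Differentiated and Lysfree cells. Bdh2 was the gene of that list that fell with differentiation (-1.44 ± 0.16). Oxct2a, Oxct2b and Agxt2 had no count in any library.

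All 13 citrate cycle genes rose with differentiation (median 1.58) and 10 of 13 fell in Lysfree vs Differentiated (median -1.38), where the largest change was that of Idh3a, a subunit of the NAD-dependent isocitrate dehydrogenase, in both (3.36 ± 0.06 and -2.21 ± 0.09). Idh3a was also the citrate cycle gene higher in Lysfree than in Undifferentiated cells (1.15 ± 0.11, adjusted p = 6.6e-11). Of 10 genes for the biotin, lipoate and cobalamin cofactors, 5 rose with differentiation (median 1.11) and 4 fell in Lysfree vs Differentiated (median -0.92). Btd, which releases biotin for reuse, fell by 1.73 ± 0.12 (adjusted p = 2.4e-10) and was the cofactor gene lower in Lysfree than in Undifferentiated cells (-1.35 ± 0.14, adjusted p = 1.1e-09). Hlcs, which attaches biotin to both carboxylases, differed by -0.88 ± 0.11 in Lysfree vs Differentiated, under 2-fold. Lias, the lipoate synthase, fell by 1.15 ± 0.10.

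Transport genes were divided. Of 9 tested, 5 rose with differentiation (median 1.00), whereas 3 rose and 4 fell in Lysfree vs Differentiated (median -0.56), and 3 rose and 1 fell in Lysfree vs Undifferentiated (median 0.41). The 3 that rose in Lysfree cells against both groups were Slc7a5 and Slc3a2, which form the plasma membrane exchanger of large neutral amino acids, and Slc16a1, a carrier of lactate and ketone bodies. Slc3a2 was at 77.8 ± 2.76, 75.4 ± 2.77 and 181 ± 28.5 FPKM in Undifferentiated, Differentiated and Lysfree cells and had the largest rise on the list in Lysfree vs Differentiated (1.33 ± 0.10, adjusted p = 8.4e-10). Slc16a1 had the largest in Lysfree vs Undifferentiated (2.47 ± 0.11, adjusted p = 1.2e-18). Slc16a3, a lactate exporter, fell furthest against Differentiated cells among those with at least 1 FPKM in a group (-2.55 ± 0.18, adjusted p = 2.8e-10). Slc25a44, the mitochondrial carrier of branched-chain amino acids, did not reach 2-fold in any comparison (0.97 ± 0.07, -0.56 ± 0.10 and 0.41 ± 0.11).

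**Figure D4:**
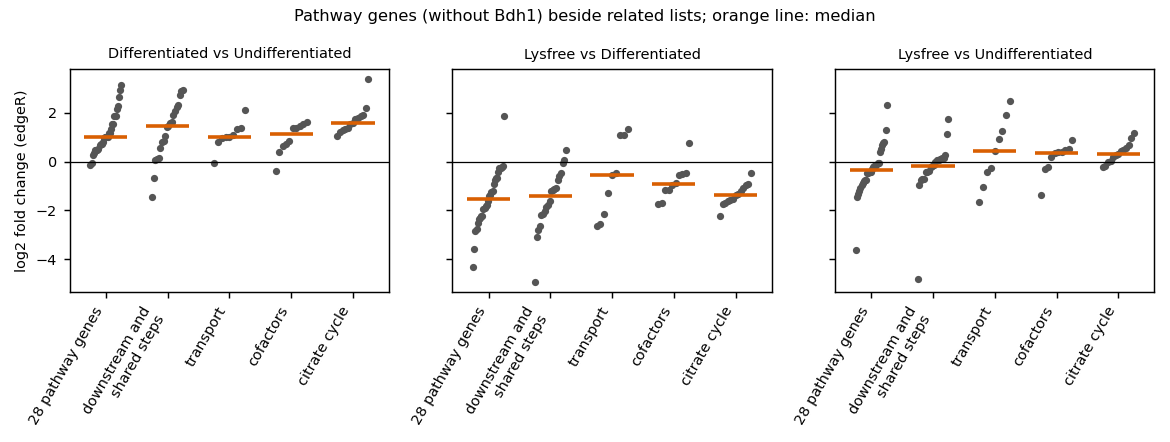
log2 fold change of each gene by list in the 3 comparisons, with an orange line at the median of the list and Bdh1 left out of the pathway genes. In Lysfree vs Differentiated the medians of pathway genes, downstream steps and citrate cycle lie at -1.52, -1.42 and -1.38, and the transport list spreads to both sides of 0. Points of genes at the floor of 3 counts in a group are imprecise.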

How the data were processed

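The data were 9 libraries of poly A enriched RNA from 3T3-L1 cells, 3 per group, with groups and replicate numbers read from the titles of the samples. According to the submitters' processing notes, reads were mapped to mm10 with HISAT2 2.0.5 and counted with featureCounts 1.5.0-p3. The strand setting and the annotation release are not given in the sources used here, so overlapping neighbours are described for Acadsb, Mut and Pcca. Neighbours with at least 10 counts in a library, and at most 103 in a group mean, also overlap Aldh6a1, Bckdha, Dbt, Oxct1, Mccc1 and Bcat2. The authors deposited counts per gene, not normalized, and FPKM for the same 54532 genes, and coordinates are those of the deposited tables. Total counts were 15880144 to 21806693 per library, and a gene with at most 3 counts in each library of a group was treated as at the floor, which covers counting error only.

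Counts were compared in R 4.3.3 by the quasi-likelihood test of edgeR 4.0.16 (TMM scaling, glmQLFit, glmQLFTest, Benjamini-Hochberg adjustment over all genes tested), separately on the 6 libraries of each comparison, after leaving out genes that had 0 counts in all 6. DEGs had an adjusted p under 0.05 and at least a 2-fold change. SEs were recovered as the absolute log2 fold change over the root of its F value. An exact permutation test of 3 against 3 libraries cannot go below a p of 0.1, so all p-values come from this fit across genes.

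The 29 genes and all lists were chosen with earlier results of these data known. Values per library are given for the transaminases, the dehydrogenase complex and its regulators, Acat1, Oxct1, Bdh1, Aacs, Aldh6a1, Abat and the 5 genes with the largest and the 5 with the smallest log2 fold change in Lysfree vs Differentiated. Genes of the other lists are named for the largest rise or fall among those with a mean of at least 1 FPKM in a group, or for a step that the 29 genes do not cover. Other genes were named after their values were seen.

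Alternatives were DESeq2 1.42.0, median-of-ratios size factors, library totals, a joint fit of the 9 libraries, a minimum of 10 counts per library, filterByExpr, a replicate block, no fold threshold, limma 3.58.1 on log2(FPKM + 1) and log2(FPKM + 0.1), and leaving out each library in turn. Upstream windows come from RefSeq (GRCm38.p6) and transcribed bases from GENCODE vM21.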

Additional observations from a re-analysis of the deposited data

How the results depend on the processing

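Counts of DEGs among the 29 genes stayed within 1.5 times of those reported under most alternatives. With no fold threshold, 26 genes were higher in Differentiated vs Undifferentiated, and 7 were higher and 14 lower in Lysfree vs Undifferentiated. With limma on log2(FPKM + 1), 3 were lower in Lysfree vs Undifferentiated, since a pseudocount of 1 FPKM compresses the weakly expressed Abat and moves Bckdha to -0.93. The median in Lysfree vs Differentiated was -1.36 with library totals, -1.55 with filterByExpr, -1.48 with at least 10 counts in every library and -1.49 with limma on log2(FPKM + 0.1), and -1.53 to -1.41 when a library was left out. Both filters remove Bdh1, as does leaving out Lysfree 2, and the minimum of 10 counts also removes Abat. The median change of all genes shifted by 0.07 with library totals and by -0.03 with filterByExpr. It shifted by -0.05 with at least 10 counts and by -0.07 with limma on log2(FPKM + 0.1). What each of these contributed to the medians was not tested. Leaving out single libraries gave 12 to 15 genes higher in Differentiated vs Undifferentiated, 18 to 19 lower in Lysfree vs Differentiated and 5 to 6 lower in Lysfree vs Undifferentiated. The genes that crossed the 2-fold threshold in these refits were Acads, Hsd17b10 and Mcee, Oxct1, and Auh and Mmaa, in that order of comparisons.

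The change of Acadsb in Differentiated vs Undifferentiated ranged from -0.10 to 0.0058 when a library was left out, that of Hibch in Lysfree vs Undifferentiated from -0.26 to 0.0233, and that of Bdh1, which is at the floor, from -2.60 to 2.68, each with a change of sign. For single genes and the p threshold alone, 37 values lost and 15 gained significance over all alternatives and 1235 did neither. Those lost were of Hsd17b10 and Mut in Lysfree vs Differentiated, Dbt and Acadsb in Lysfree vs Undifferentiated, and Auh and Abat in Differentiated vs Undifferentiated. Hsd17b10 had an adjusted p of 0.052 to 0.18 without Differentiated 1, 2 or 3 or Lysfree 2 or 3, and Mut 0.062 to 0.10 without any of the same libraries. For Dbt the adjusted p was 0.055 to 0.22 without any single library but Lysfree 2, and for Acadsb 0.11 to 0.25 without Undifferentiated 1 or 3 or Lysfree 2 or 3.

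Correlations between deviations of libraries with the same number ran from -0.084 to 0.115, so the numbers were not taken to pair libraries. With the replicate block, 13 genes were higher in Differentiated vs Undifferentiated, 18 lower in Lysfree vs Differentiated and 5 lower in Lysfree vs Undifferentiated, with medians of 0.98, -1.43 and -0.29, and Hsd17b10 in Lysfree vs Differentiated had an adjusted p of 0.07. No other call changed. Depth limits Abat and Bdh1.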
